A study of Mus musculus with 27 samples.

Results

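The comparison described here sets neural progenitor cultures (NPCs) of the Zfp512b knockout clone #4 (KO4, 2 libraries) against those of WT cells (2 libraries), for the 12257 of 25209 annotated genes whose base mean reached 50. Both derive from V6.5 cells, male embryonic stem cells of the mouse. KO4 is a single clone, with a triple transcriptional terminator and selection markers placed behind exon 3 of Zfp512b, whereas the WT cells carry no insertion and were not selected. Naive cells were primed for 2 days in serum medium with LIF, held without LIF in hanging drops of 1000 cells for 4 days, and kept in suspension with 5 µM retinoic acid for 4 more days. The embryoid bodies collected on Day 10 were sequenced whole, so the libraries hold RNA of every cell type in them. Clone #8 (KO8, 2 libraries), carried through the same steps, is set beside KO4 where the 2 clones can be compared directly.

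Zfp512b encodes a zinc finger protein that binds DNA and the NuRD chromatin remodelling complex. Embryoid bodies exposed to retinoic acid turn largely into neural tissue. Its progenitors express SoxB1 factors (Sox1, Sox2 and Sox3), Pax6 and Nestin and hold back differentiation through Notch signaling, in which a ligand such as Dll1 on one cell activates the receptor on its neighbour. The cleaved receptor joins the DNA-binding protein RBPJ and switches on repressors such as Hes5. Cells that escape this restraint express proneural factors, among them Neurog1, and then the cytoskeletal and RNA-binding proteins of neurons.

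Reads per library were not read directly but solved from the base means, the mean of the scaled reads over the libraries of a comparison. The 2 NPC tables share their WT libraries, and whole reads in 6 libraries that meet both base means at their full precision were found for 7375 of the 12257 genes (60.2%). They are called tested genes below. The other 4882 had a base mean of 1000 or more in either table (4875) or more than 1 likely solution (7), and only their pooled level is known. They are the most abundant transcripts: the tested genes hold 17.1% of the summed base mean. The libraries, named a and b because the replicate numbers could not be assigned, held about 16.1 to 17.8 M reads on genes in WT and KO4 and 17.4 to 18.6 M in KO8. Levels below are normalised reads, that is, reads divided by the size factor of the library. For tested genes of base mean 200 or more, the replicates differed by a median of 0.12 (WT), 0.10 (KO4) and 0.15 (KO8) on the log2 scale. No source states that the replicates were separate differentiations, so p-values measure the spread between these libraries.

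The targeted gene could not be checked from the base means used here. The paper itself reports that its knockout clones were verified in DNA, RNA and protein. Zfp512b (chromosome 2 of mm9, 181316808 to 181327508, minus strand) had a base mean of 1325.3 in the KO4 comparison and 1354.5 in that of KO8, and 1174 sets of whole reads gave both values. Of these, 3 had replicates near each other in all groups, and their log2 difference of KO4 and WT ran from -3.17 to 3.41. The 2 base means therefore do not fix even its direction. Its paralogue Zfp512 (base mean 1892.1) was not solved either.

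The cultures held neural and other cells. All 9 progenitor markers reached a base mean of 50, from 117 (Fabp7) to 7798 (Vim), and all 7 neuronal markers did so. The endothelial genes Pecam1 (1144.8), Cdh5 (1650.9) and Kdr (2580.8) were abundant as well, and all 6 pluripotency markers lay between 124.8 and 482.1. Brachyury (T), the muscle genes Tnnt2 and Myh6, the crest and glial genes Sox10 and Gfap, and the blood cell gene Ptprc were at a base mean under 10. In such bulk RNA, fewer cells of a type and less RNA per cell cannot be told apart.

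In KO4, genes of neural progenitors, Notch ligands, proneural factors and neuronal proteins were higher than in WT, whereas 3 embryonic globins were lower. Hox genes (1 higher and 5 lower), Wnt genes (9 and 15) and genes of mesoderm and muscle (4 and 5) changed in both directions. In addition, most tested genes of chromosome 8 were higher. Of the tested genes, 815 (11.1%) were higher and 637 (8.64%) lower in KO4 at an adjusted p under 0.05 in limma. Over all 9474 genes fitted, which include those with a base mean of 10 to 50, 9.84% were higher and 7.71% lower. The change was at least 1 on the log2 scale for 236 of the higher and 143 of the lower genes, and at least 2 for 24 and 20. The median difference of called genes was 0.71 for those higher and -0.67 for those lower. Both KO4 libraries lay above both WT libraries for 27.2% of tested genes and below them for 28.8%, against 26.7% and 28.2% of all genes fitted. The absence of overlap thus says little by itself with 2 libraries per group. It adds nothing for a called gene, since 813 of the 815 higher and all 637 lower genes had groups that did not overlap. The count of lower genes was 351 without KO4 library a and 371 without KO4 library b. With the KO8 libraries in the fit, 203 genes were higher and 189 lower, and what lowered the counts was not tested.

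**Figure D1:**
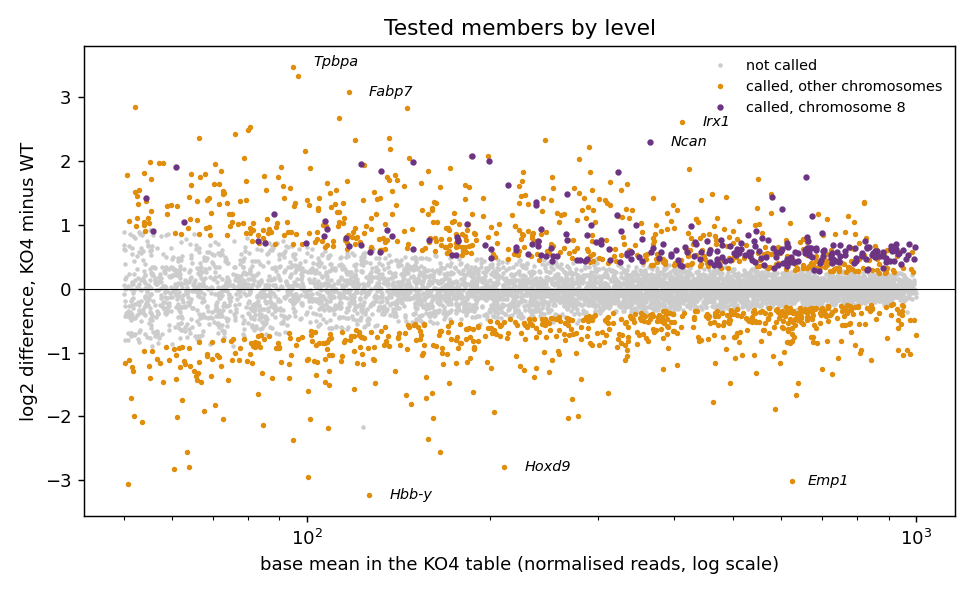
Log2 difference of KO4 and WT (y axis) against the base mean in normalised reads (x axis, log scale) for the 7375 tested genes, each a point. Grey genes were not called, orange genes were called, and purple genes were called and lie on chromosome 8; Tpbpa, Fabp7 and Irx1 stand at the top, Hbb-y, Hoxd9 and Emp1 at the bottom, and the purple points form a band at about 0.5.

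The 10 genes with the largest rise included the transcription factors Pax8, Sall3 and Irx1. Fabp7, the brain fatty acid binding protein of radial glia, went from 19.9 and 30.3 in WT to 226 and 192 in KO4 (log2 difference 3.08 ± 0.33, SE, adjusted p = 1.64e-07). The KO4 libraries lay far above those of WT. Pax8 rose by 2.84 ± 0.41 and Sall3 by 2.83 ± 0.27, a pair of transcription factors of the early neural tube and other embryonic tissues. Irx1, an Iroquois homeobox factor, had 125 and 106 in WT and 711 and 710.4 in KO4 (2.61 ± 0.16, adjusted p = 5.2e-11). Neto1, an auxiliary subunit of glutamate receptors, rose by 2.68 ± 0.31.

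Tpbpa, a marker of the spongiotrophoblast, gave the largest log2 difference (3.47 ± 0.58, adjusted p = 8.17e-05) but varied much, with 7.57 and 26.1 in WT and 247 and 98.1 in KO4. In KO8 it had 172 and 1483 normalised reads, and its rise in KO4 was not called with the KO8 libraries in the fit or with robust moderation. Plac1 (2.43 ± 0.36), Plet1 (2.49 ± 0.36) and Ldoc1 (2.53 ± 0.40), all known from the placenta or its progenitors, were higher too. Ceacam9, another placental gene and named after its values were seen, was at 9.47 and 44.9 in WT and at 106 and 105 in KO4.

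Among the genes that fell most were the embryonic globins, made by the primitive red cells of the yolk sac. Hbb-y had 232 and 223 normalised reads in WT and 17.4 and 33.4 in KO4 (-3.23 ± 0.33, adjusted p = 1e-07). Hba-x had 179 and 175 in WT and 16.4 and 31.3 in KO4 (-2.95 ± 0.34). Hbb-bh1, a neighbour and close relative of Hbb-y with which reads could be shared, went from 106 and 76.2 to 11.6 and 9.39 (-3.05 ± 0.46). In KO8 the levels were not low: Hbb-y had 391.5 and 381. Emp1, an epithelial membrane protein, fell from 1240 and 985 to 142 and 131 (-3.01 ± 0.17, adjusted p = 1.6e-11), and was at 198 and 199.8 in KO8. The remaining genes of the 10 with the largest fall were Mybpc3 (-2.83 ± 0.44), a myosin-binding protein of the heart, the matrix glycoproteins Tnn (-2.79 ± 0.41) and Tnxb (-2.36 ± 0.30), Hoxd9 (-2.80 ± 0.23), Lhx3 (-2.56 ± 0.38), a factor of motor neurons, and the heat-shock gene Hspa1a (-2.55 ± 0.37). Hspa1a is nearly identical to Hspa1b, which fell by 1.00 on the log2 scale, so the split of reads between them is uncertain.

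Neural progenitor and radial glia markers rose for the most part. Of 30 genes listed, 29 reached a base mean of 50 and 13 could be tested; 9 were higher and 2 lower in KO4, with a median log2 difference of 1.23 beside -0.01 over all tested genes. Sox1, the earliest marker of the neural lineage, had 36.9 and 84.5 normalised reads in WT and 169 and 238 in KO4 (1.85 ± 0.29). Sox3 had 210.1 and 296 in WT and 673 and 1018 in KO4 (1.73 ± 0.18). Pax6, a master factor of neural tube and eye, had 169 and 179 in WT and 371 and 457 in KO4 (1.23 ± 0.16, adjusted p = 2.52e-06). The lowest KO4 library exceeded the highest WT library for all 3 of these genes. Sox21 (2.37 ± 0.30), which acts against SoxB1 factors, and Rfx4 (1.47 ± 0.22), a factor of ciliated neural progenitors, rose as well, and Lrp2 (0.92 ± 0.20) and Sox9 (0.31 ± 0.09) did so by less.

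Not all radial glia genes followed. The receptor phosphatase Ptprz1 had 234 and 251 in WT and 68.5 and 88.7 in KO4 (-1.63 ± 0.21, adjusted p = 2.58e-06), and the glutamate transporter Slc1a3 fell by 0.61 on the log2 scale. Sox2 (base mean 912.7), Nes (4344) and Vim (7798) were among the 16 markers that could not be tested. Sox1 lies on chromosome 8. Without that chromosome the median of the list was 1.07. The sum over the 5 solved progenitor markers used to check the cell type was 499.8 and 668.7 in WT, 1632 and 2148 in KO4, and 1377 and 3237 in KO8.

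**Figure D2:**
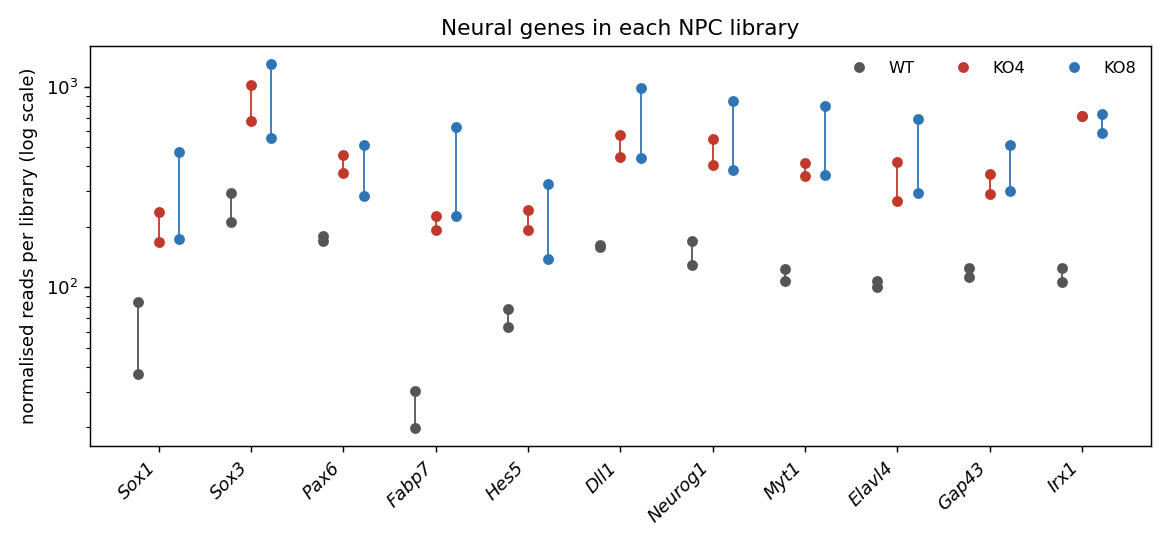
Normalised reads per library (y axis, log scale) of 11 neural genes in WT (grey), KO4 (red) and KO8 (blue). Each point is a library and lines join the 2 libraries of a group; both KO4 points lie above both WT points for every gene, and the KO8 pairs are mostly the widest.

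Notch pathway genes rose or did not pass the test. Of the 17 tested, 8 were higher and 0 lower (limma), with a median of 0.29, and 3 of the remaining 9 had an unadjusted p under 0.05, namely the effectors Hey2 (-0.77 ± 0.34) and Heyl (-0.42) and Hes6 (0.29), which opposes Hes1. The ligand Dll1, displayed by nascent neurons, had 159 and 163 normalised reads in WT and 448 and 571 in KO4 (1.64 ± 0.16, adjusted p = 6.08e-08). Dll3, which acts within the cell on the same pathway, rose by 1.31 ± 0.22, and Nrarp, a feedback inhibitor induced by Notch, by 1.10 ± 0.14. The glycosyltransferases Lfng (1.03 ± 0.24) and Mfng (0.75 ± 0.21), which set the ligand preference of the receptor, were higher too, as was the coactivator Maml3 (0.55 ± 0.09). Dll4 and Jag1, ligands used in vessels and other tissues, rose by 0.36 and 0.32. Hes5, the main Notch effector of neural progenitors, is held in the progenitor list and had 63.4 and 78.2 in WT and 193 and 243 in KO4 (1.61 ± 0.23, adjusted p = 8.2e-06). The receptors Notch1, Notch2 and Notch3 and the effector protein Rbpj were too abundant to be tested. Without WT library b, 6 were higher and 1 lower, without WT library a 7 and 1, and without KO4 library a 5 and 0. A fit that includes KO8 left 1 higher and 0 lower.

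The promoters of Hes5 and Lfng are shown because both genes rose and both carry the recognition letters of RBPJ, GTGGGAA on either strand, in the 250 bases before the start. The sequences are those of RefSeq on GRCm38.p6, and capitals mark the letters searched for (as TTCCCAC where they lie on the other strand).
Hes5, chr4:154960673-154960922, plus strand: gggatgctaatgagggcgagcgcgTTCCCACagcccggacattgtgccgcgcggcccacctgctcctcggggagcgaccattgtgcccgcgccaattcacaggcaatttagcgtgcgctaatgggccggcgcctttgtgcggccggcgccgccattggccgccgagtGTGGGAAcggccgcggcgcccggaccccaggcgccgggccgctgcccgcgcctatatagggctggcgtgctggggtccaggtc
Lfng, chr5:140607091-140607340, plus strand: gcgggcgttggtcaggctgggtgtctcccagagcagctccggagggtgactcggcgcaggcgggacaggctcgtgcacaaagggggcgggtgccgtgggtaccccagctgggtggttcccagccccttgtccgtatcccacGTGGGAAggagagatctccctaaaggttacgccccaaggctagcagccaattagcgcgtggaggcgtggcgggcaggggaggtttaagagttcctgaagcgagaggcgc
Hes5 holds the letters at 226 and 83 bases before the start and Lfng at 109 bases before it. They occur in the same window of 5.41% of 27025 genes with a promoter sequence. Of the 15 tested genes of the Notch list with a sequence, Lfng and Hey2 hold them, and Hey2 had 94.7 and 50.1 normalised reads in WT and 33.8 and 50.1 in KO4.

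Of 26 tested proneural and neuronal transcription factors, 21 were higher and 2 lower, with a median of 1.11. Neurog1, which commits progenitors to become neurons, had 129.7 and 170.04 normalised reads in WT and 408 and 551 in KO4 (1.67 ± 0.18, adjusted p = 2.02e-07). Myt1, a zinc finger factor that represses progenitor genes in nascent neurons, had 108 and 123 in WT and 360.1 and 417 in KO4 (1.75 ± 0.18), and its relative St18 rose by 2.33 ± 0.31. Insm1 (1.54 ± 0.17), Ebf3 (1.59 ± 0.18), Scrt1 (1.24 ± 0.15), Nhlh1 (1.70 ± 0.27) and Neurod4 (1.92 ± 0.30), all factors of newly born neurons, rose to a like extent. The motor neuron factor Lhx3 went the other way, from 116 and 100.1 in WT to 25.1 and 12.5 in KO4, and so did Onecut2 (-0.54 ± 0.13).

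Genes for proteins of differentiating neurons rose too. Of 34 tested genes for the neuronal cytoskeleton and differentiation, 23 were higher and 0 lower (limma; of the other 11, Ank3 at -0.31, Nova1 at 0.33 and Chga at 0.75 had an unadjusted p under 0.05), and the median was 0.85. The splicing regulators Nova2 and Srrm4 (1.59 ± 0.17), which switch transcripts to neuronal forms, and the RNA-binding proteins Elavl2 and Elavl4 (1.68 ± 0.22) were higher. Gap43, a protein of growth cones, had 113 and 125 in WT and 291 and 368 in KO4. The adhesion molecule Nrcam (1.43 ± 0.16) and the actin-binding protein Tagln3 (1.41 ± 0.16) rose likewise. Among 3 markers used to check the cell type, Stmn2 went up by 0.46 ± 0.14 and the neurofilament gene Nefm by 0.62 ± 0.15, while Nefl had 728 and 710.4 in WT and 734 and 858 in KO4 (0.14 ± 0.10, not called).

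The calls of the neural lists changed with the libraries in the fit. Without any 1 library, 7 to 9 of the progenitor markers, 19 to 21 of the proneural factors and 19 to 22 of the neuronal genes stayed higher. The median of the progenitor list then ran from 0.94 (without WT library a) to 1.39 (without KO4 library a). With the KO8 libraries in the fit, 0, 1 and 1 were higher. KO8 library b exceeded library a for most of them, for example 1294 against 553 for Sox3 and 981 against 438 for Dll1.

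**Figure D3:**
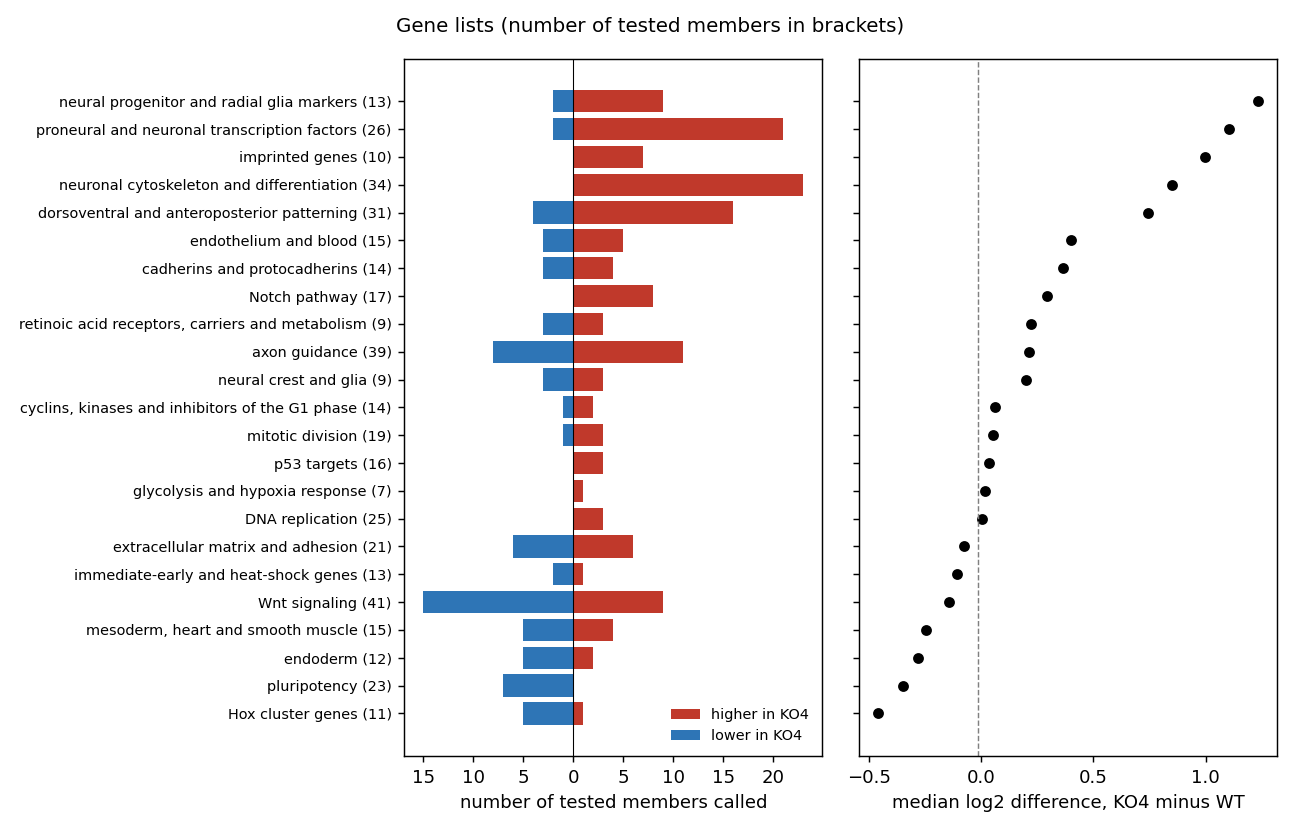
Left, the number of tested genes called higher (red, to the right) or lower (blue, to the left) in KO4 for each gene list with at least 7 tested genes (number in brackets). Right, the median log2 difference of each list, with a dashed line at that of all tested genes (-0.01); the neural lists and the imprinted genes have the highest medians and the Hox genes the lowest.

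Patterning genes split by position. Of 31 tested dorsoventral and anteroposterior patterning genes, 16 were higher and 4 lower (median 0.74). The Iroquois genes Irx1, Irx2 (1.88 ± 0.14) and Irx5 (1.83 ± 0.18) rose together. The spalt factor Sall1 had 292 and 311 normalised reads in WT and 975 and 1062 in KO4 (1.76 ± 0.11), and Zic1 of the dorsal neural tube had 218 and 314 in WT and 684 and 730.2 in KO4 (1.44 ± 0.14). Pax3 (1.24 ± 0.17) and Pax2 (1.42 ± 0.18), of the dorsal neural tube and the midbrain-hindbrain border, Dbx1 (1.83 ± 0.24), of its middle domain, and Sp8 (1.95 ± 0.28) were higher. Emx2, a factor of the caudal cortex and the kidney, fell from 237 and 250.4 to 110.06 and 106 (-1.16 ± 0.18), and Msx1 (-0.80 ± 0.15) and Sall4 (-0.34 ± 0.11) were lower. Sall1 and Irx5 lie on chromosome 8; without its 3 tested genes the list median was 0.46. With the KO8 libraries in the fit, 6 were higher and 2 lower, and without either KO4 library 2 were lower.

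Hox genes, which mark position from hindbrain to tail, moved in both directions. Only 11 of the 26 that reached a base mean of 50 could be tested, 1 of them higher and 5 lower (median -0.46). Hoxd9 had 359 and 379 normalised reads in WT and 50.2 and 55.3 in KO4, and Hoxc8 242 and 261 in WT and 102 and 78.2 in KO4 (-1.48 ± 0.20). The groups were far apart for both genes. Hoxb13 (-0.75 ± 0.17), Hoxd8 (-0.62 ± 0.13) and Hoxb1 (-0.46 ± 0.14) fell by less. Hoxa6 was the exception, with 385 and 431 in WT and 789 and 876 in KO4 (1.03 ± 0.11, adjusted p = 1.44e-07). The more abundant members, such as Hoxa5 (base mean 8300.1) and Hoxc5 (4494), were not solved. Without KO4 library b, 3 were lower. With the KO8 libraries in the fit 3 were lower and 0 higher, so that the rise of Hoxa6 was not called (adjusted p = 0.0984).

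Genes that carry or sense retinoic acid, the inducer used in the protocol, gave 3 higher and 3 lower of 9 tested, and 1 higher and 0 lower with the KO8 libraries in the fit. Without either KO4 library, 2 were lower. Stra8, a gene switched on by retinoic acid, had 826 and 629 normalised reads in WT and 245 and 276 in KO4 (-1.48 ± 0.14, adjusted p = 4.29e-08). Rdh10 (-0.68 ± 0.10), which makes retinaldehyde, and the uptake receptor Stra6 (-0.36 ± 0.10) fell too. Lrat, which stores retinol as esters, rose from 457 and 507 to 1081 and 1039 (1.14 ± 0.10), and Tgm2 (0.44 ± 0.10) and the carrier Crabp2 (0.35 ± 0.11) rose less. The receptors Rara, Rarb and Rarg and the degrading enzymes Cyp26a1 and Cyp26b1 were too abundant to be tested.

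Wnt signaling genes changed in both directions, with 9 higher and 15 lower of 41 tested (median -0.14). The ligand Wnt7b (1.53 ± 0.22), the receptor Fzd10 (0.76 ± 0.11), the secreted modulators Sfrp2 (0.89 ± 0.10) and Rspo3 (0.78 ± 0.10) and the cadherin Celsr3 (1.15 ± 0.15) were higher. The ligands Wnt2 (-1.18 ± 0.25) and Wnt9a (-0.71 ± 0.13), the R-spondin receptor Lgr6 (-2.01 ± 0.34) and the polarity protein Vangl1 (-0.70 ± 0.10) were lower. The antagonist Sfrp5 had 232 and 273 normalised reads in WT, 114 and 122 in KO4, and 656 and 599 in KO8. Without KO4 library a, 8 of the list were higher and 7 lower, and with the KO8 libraries in the fit 2 and 6.

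Axon guidance genes likewise moved both ways, 11 higher and 8 lower of 39 tested (median 0.22). Ntn1, the secreted attractant of commissural axons, had 362 and 298 normalised reads in WT and 577 and 696 in KO4 (0.94 ± 0.13), and its receptor Dcc 112 and 156 in WT and 333 and 376 in KO4 (1.42 ± 0.18). The repellent Sema3c fell from 1236 and 1059 to 481 and 589 (-1.11 ± 0.11), and the Slit receptor Robo2 by 0.55 on the log2 scale. Sema5b (1.26 ± 0.18), Plxna2 (0.63 ± 0.09) and Plxnc1 (0.59 ± 0.09) were higher and Flrt2 (-0.49 ± 0.09) lower. The lower genes numbered 3 without KO4 library a and 5 without WT library a or KO4 library b. The fit with the KO8 libraries gave 4 higher and 2 lower.

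Chromosome 8 stood apart from all other chromosomes. Of its 349 tested genes, 241 (69.1%) were higher in KO4 and 0 lower (limma), and 332 had a log2 difference above 0. Their median was 0.52, a 1.44-fold level, with 10th and 90th percentiles of 0.23 and 0.84. On the other autosomes and the X chromosome, medians lay between -0.06 and 0.004 and at most 11.8% of tested genes were higher. The rise ran along the whole chromosome. In windows of 20 Mb of mm9 the median was between 0.46 (40 to 60 Mb) and 0.57 (0 to 20 Mb). The 349 genes held 4.18% and 4.199% of the reads of all tested genes in WT, 6.03% and 6.06% in KO4, and 5.98% and 6.18% in KO8. None of the 349 was called between KO4 and KO8 in limma, and the median difference between the clones was 0.02. Over all 9552 genes of that fit, only 0.209% were higher and 0.335% lower, so a count of 0 is near that share. It does not show that the clones are alike on this chromosome. Leaving out any 1 library left 187 to 213 genes higher, with 1 gene lower without WT library b, and 120 were higher with the KO8 libraries in the fit.

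**Figure D4:**
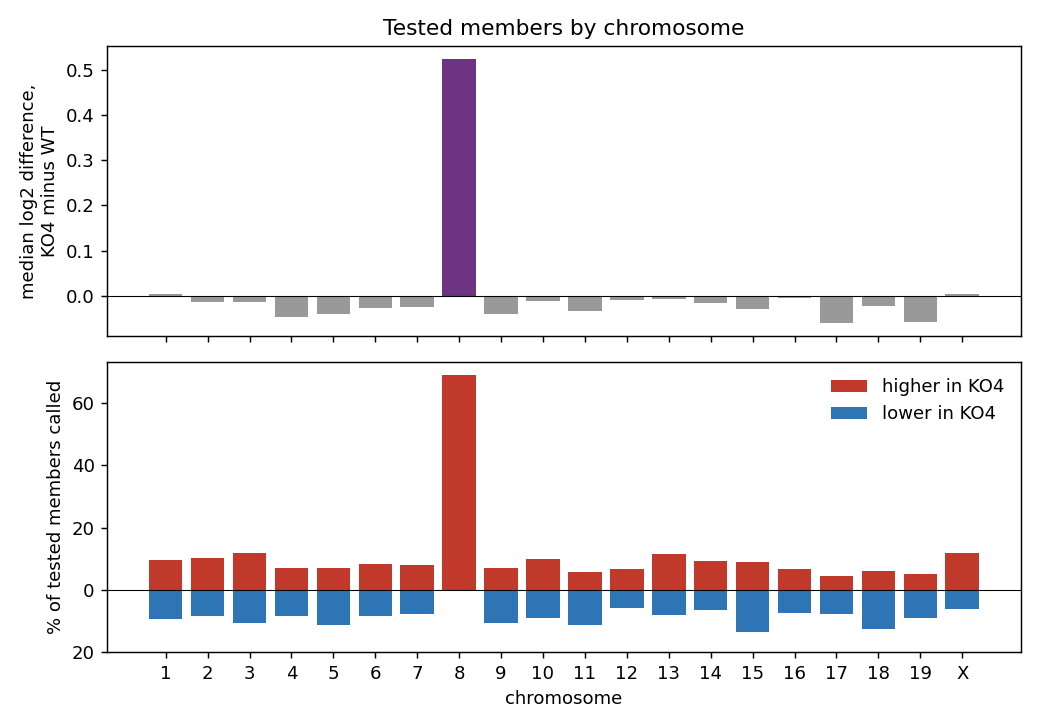
Top, median log2 difference of KO4 and WT over the tested genes of each chromosome. Bottom, percentage of tested genes called higher (red, upward) and lower (blue, downward); chromosome 8 has a median of 0.52 and 69.1% higher, and the others lie near 0 with at most 11.8% higher.

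Chromosome 8 carried 4.73% of the tested genes and 29.6% of those higher in KO4. Off chromosome 8, 574 genes were higher and 637 lower of 7022 tested, so the excess of higher over lower calls is held by that chromosome. Its genes with a base mean of 300 to 1000 had a median of 0.55, those of 100 to 300 one of 0.48 and those of 50 to 100 one of 0.36. The calls of several lists lay there. All 3 of the replication genes called higher among 25 tested are on chromosome 8, namely Gins2 (0.45 ± 0.10), Gins3 (0.51 ± 0.12) and Gins4 (0.52 ± 0.09), subunits of the replicative helicase. The other 22 were not called, and the list median without these 3 was -0.01. Among 19 tested genes of mitotic division the kinetochore gene Cenpn (0.63 ± 0.11) and Anapc10 (0.63 ± 0.14), a subunit of the anaphase-promoting complex, are on chromosome 8 as well. The phosphatase Cdc25b (0.28 ± 0.10, chromosome 2) was the other one higher, and securin, Pttg1, was lower (-0.69 ± 0.16). Of the genes for the G1 phase, Rbl2 on chromosome 8 (0.57 ± 0.10) and the inhibitor Cdkn2a (0.86 ± 0.18) were higher and Myc lower (-0.35 ± 0.11). Some genes rose well beyond the chromosome's median, neural genes among them. Ncan, a proteoglycan of the brain matrix, had 131 and 115 normalised reads in WT and 555 and 661 in KO4 (2.29 ± 0.17), and the cadherin Cdh8 rose by 1.15 ± 0.14.

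Pluripotency genes were lower or not called. Of 23 tested, 7 fell and 0 rose (limma), with a median of -0.35. Nanog had 395 and 662 normalised reads in WT and 323 and 342 in KO4 (-0.61 ± 0.17, adjusted p = 0.0114). Pou5f1 had 304 and 448 in WT and 322 and 294 in KO4, groups that overlap (-0.24 ± 0.15, adjusted p = 0.332). Klf5 (-0.84 ± 0.18), Lefty2 (-1.12 ± 0.28), Lin28a (-0.54 ± 0.14) and Utf1 (-0.75 ± 0.21) were lower. WT library b had the higher level for most of them, with 7314 summed over the 23 genes against 4986 in library a, 4844 and 5026 in KO4, and 6967 and 11171 in KO8. Without WT library b only 1 gene of the list was lower and 1 higher, and without WT library a 13 were lower. Without KO4 library a, 4 were lower and 1 higher. None of the list was called in either direction with the KO8 libraries in the fit.

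Mesodermal and smooth muscle genes gave 4 higher and 5 lower of 15 tested. Smooth muscle actin, Acta2, had 1067 and 778 normalised reads in WT and 262 and 236 in KO4 (-1.88 ± 0.15, adjusted p = 3.53e-09). Transgelin, Tagln, another protein of contractile cells, had 449 and 402 in WT and 75.3 and 147 in KO4 (-2.03 ± 0.21). The troponin gene Tnni1 (-1.02 ± 0.19) and the mesenchyme factor Foxc1 (-0.64 ± 0.11) fell as well. Tbx5 (0.67 ± 0.10), a factor of heart and forelimb, and Isl1 (0.77 ± 0.12), of the heart field and of motor neurons, rose. Of the matrix genes, Col6a2 fell from 1116 and 969 to 421 and 403 (-1.33 ± 0.11), and Itga8 (-1.25 ± 0.14) and Postn (-0.93 ± 0.18) were lower, whereas Reln, secreted by early cortical neurons, was higher (0.90 ± 0.17). In all, 6 matrix and adhesion genes were higher and 6 lower of 21 tested, 3 and 5 without KO4 library b. The corresponding counts with the KO8 libraries in the fit were 1 and 2 for the matrix genes and 2 and 4 for the mesodermal genes.

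The endothelial genes that could be tested did not follow the globins, while Pecam1, Cdh5, Kdr, Flt1 and Tie1 could not be tested. Of 15 tested genes of endothelium and blood, the 3 globins were the only ones lower, and 5 were higher, among them the TGF-β coreceptor Eng (0.61 ± 0.10), the vessel factor Sox18 (0.71 ± 0.12) and the junction protein Esam (0.59 ± 0.12). With the KO8 libraries in the fit none of these 5 was called. The endoderm list gave 2 higher and 5 lower of 12. Foxa1 had 463 and 449 in WT and 309 and 274 in KO4 (-0.64 ± 0.13), and Epcam (-0.83 ± 0.11), Apoa1 (-1.23 ± 0.35) and Ttr (-1.12 ± 0.33) were lower. The yolk sac gene Afp stood at 40.7 and 400 in WT, so its difference (-2.17 ± 0.81, adjusted p = 0.0668) was within the spread of the WT libraries. Without WT library b, 2 of the list were higher and 3 lower, and with the KO8 libraries in the fit 1 and 2. The nerve growth factor receptor Ngfr had 961 and 964 in WT and 289 and 323 in KO4 (-1.66 ± 0.11, adjusted p = 2.02e-10), in a crest and glia list with 3 higher and 3 lower of 9 tested. Only 1 was lower without either KO4 library, and 1 was higher and 1 lower with the KO8 libraries in the fit.

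Imprinted genes, which are expressed from 1 parental copy, were shifted upward as far as they could be tested. Of 36 that reached a base mean of 50 only 10 were solved, and 7 of these were higher in KO4 and 0 lower (limma; median 1.00). Sgce had 346 and 294 normalised reads in WT and 777 and 772 in KO4 (1.27 ± 0.12). Peg12, of the Prader-Willi region on chromosome 7, had 417 and 428 in WT and 920.1 and 989.9 in KO4 (1.18 ± 0.10, adjusted p = 7.94e-09), and its neighbours Mkrn3 (0.79 ± 0.13) and Magel2 (1.39 ± 0.23) were higher. Zrsr1 rose from 333 and 342 to 593 and 602 (0.82 ± 0.12). All 5 are expressed from the paternal copy. The RNA genes Airn (1.41 ± 0.26) and Peg13 (1.24 ± 0.20) rose too, but they lie opposite to or within other genes, as Zrsr1 does, and the strand setting of the counting is not given. Each of the 7 was higher without any 1 library, and 6 were called with the KO8 libraries in the fit. The most abundant imprinted genes, such as Peg10, Igf2 and H19, were not solved. Their pooled levels differed between the comparisons of the 2 clones, which share the WT libraries but were scaled separately: H19 had a base mean of 45198 with KO4 and 8212 with KO8, and Igf2 one of 53624 and 91727.

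Of 4 tested NuRD and H2A.Z partners, none was called (limma; none at an unadjusted p under 0.05), and 15 were not solved. Of 16 tested p53 targets 3 were higher, of 7 glycolysis and hypoxia genes 1, and of 13 immediate-early and heat-shock genes 1 was higher and 2 were lower. Of 14 cadherins and protocadherins, 4 were higher and 3 lower. The 1 glycolysis gene called higher and 1 of the 4 higher cadherins (Cdh8) lie on chromosome 8. Of 2 tested Y chromosome genes, 1 was higher and 1 lower. Over all tested genes 11.1% were higher and 8.64% lower, and a few calls in lists this small say little beside that share. Including the KO8 libraries in the fit left 1 cadherin higher and 1 lower, and no gene of the p53, glycolysis, immediate-early and Y chromosome lists was called.

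In a direct comparison few genes were called between KO4 and KO8, which does not show that the clones are alike. In a fit of all 6 libraries, 20 tested genes were higher and 25 lower in KO4 than in KO8 at an adjusted p under 0.05 in limma, and 1113 had an unadjusted p under 0.05. Over all 9552 genes of that fit, 0.209% were higher and 0.335% lower. Of these 45 genes, 38 were also called between KO4 and WT. This count depends on single libraries. It was 0 without any 1 of the WT or KO4 libraries (429 to 947 at an unadjusted p under 0.05), 1324 without KO8 library a and 333 without KO8 library b.

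The globins differed most between the clones. KO4 was below KO8 by 3.99 ± 0.32 on the log2 scale for Hbb-y, and by 3.85 ± 0.34 for Hba-x. WT lay between them and nearer to KO8. Sfrp5 was at 114 and 122 in KO4 and 656 and 599 in KO8 (-2.41 ± 0.17, adjusted p = 0.00503), with WT at 232 and 273. Cldn3, Marveld2, Cldn7 and Cgn were named after their values were seen. Claudin 3, Cldn3, had 167 and 160 normalised reads in WT, 38.6 and 39.6 in KO4, and 158 and 199 in KO8 (KO4 minus KO8 -2.16, adjusted p = 0.0257). The tight junction genes Marveld2 (-1.56), Cldn7 (-1.06) and Cgn (-0.86) and the adhesion molecule Epcam (-0.95) were also lower in KO4 than in KO8, and each was lower in KO4 than in WT. Tagln was lower in KO4 than in KO8 as well (-1.77 ± 0.29), where it had 316 and 403.

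A few genes were higher in KO4 than in KO8. Sgce had 777 and 772 in KO4 against a lower level in KO8 (adjusted p = 0.0389), Zrsr1 differed by 0.82 ± 0.11, and Snhg14, the long RNA of the Prader-Willi region named after its values were seen, by 1.19. For Zrsr1 and Snhg14 the KO8 libraries (327 and 349; 348 and 356) lay close to those of WT (333 and 342; 353 and 348), whereas KO4 stood at 593 and 602 and at 873 and 733. Peg12 and Magel2 showed the same order but missed the threshold (adjusted p = 0.0693 for both), and Peg13 had 220.1 and 212 in KO4 and 244 and 335 in KO8. Tbx5 (1.29 ± 0.15), Dll4 (0.86 ± 0.13) and Snai1 (0.85 ± 0.11) were higher in KO4 than in KO8, whose libraries lay below those of WT.

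For the neural genes no difference between the clones was called. Sox1, Sox3, Pax6, Hes5, Dll1 and Neurog1 differed by -0.50 to 0.11, with adjusted p of 0.651 or more. With KO8 libraries as far apart as 174 and 472 for Sox1, this does not show that the clones are alike.

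**Figure D5:**
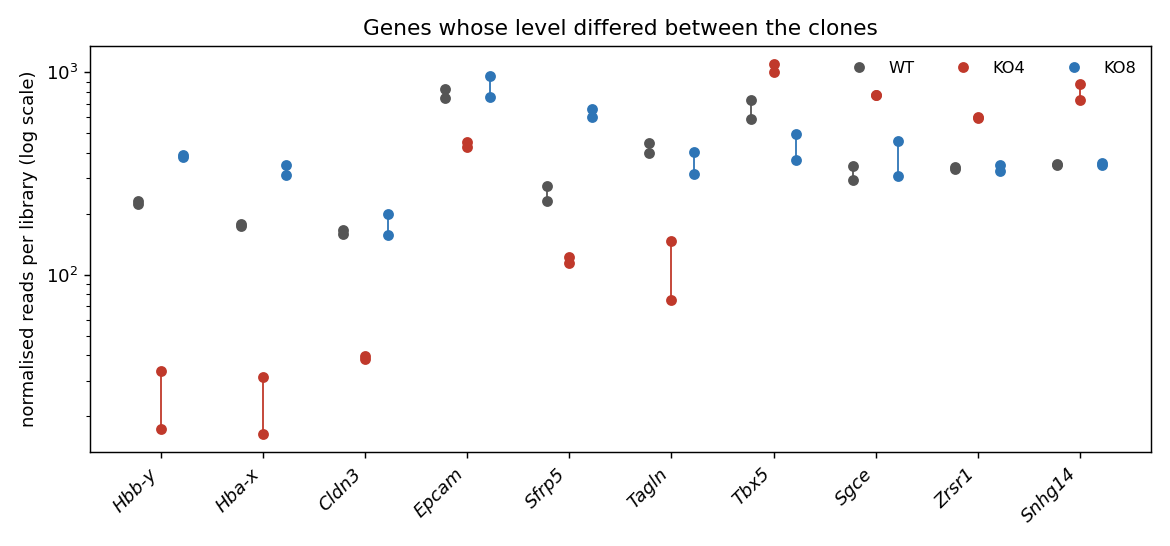
Normalised reads per library (y axis, log scale) of 10 genes called between KO4 and KO8, in WT (grey), KO4 (red) and KO8 (blue), with lines joining the 2 libraries of a group. KO4 lies below both other groups for the globins, Cldn3, Epcam, Sfrp5 and Tagln, and above both for Tbx5, Sgce, Zrsr1 and Snhg14.

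By median, the called genes off chromosome 8 were longer than those not called, and those on it were not. The span of the gene on mm9 had a median of 35.2 kb for the 574 genes higher off chromosome 8, 18.4 kb for the 241 higher on it, 27.9 kb for the 637 lower and 19.5 kb for those not called. The median base mean of these sets also differed, at 240, 531, 309 and 348 in the same order. Both are descriptions, since genes are not independent replicates.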

How the data were processed

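The submitters' processing notes name Trim Galore 0.6.7, HISAT2 2.2, featureCounts, mm9 and, for the comparisons, the authors' DESeq2 1.46.0. The strand setting of the counting is not given in the sources used here. Each deposited table holds a base mean, a signal that the authors computed as the mean of reads divided by size factors over 4 libraries, and 5 columns of the authors' own comparison (log2 fold change, standard error, statistic, p and adjusted p), none of which was used. The base means of the 2 NPC tables were used, and 6 tables of other stages were not.

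Genes with 1 read show the step of each library, 1 read divided by 4 size factors. The 2 libraries whose steps recur in both tables (92 and 66 such genes, 0 exceptions) were taken as WT, and the rest as KO4 or KO8 by their table. Whole reads that meet both base means were enumerated by lattice reduction (Python 3.11.15, numpy 2.4.6, numba 0.67.0), with replicates allowed to differ by 4 SD at a dispersion of 0.02. A gene was kept when 1 solution held at least 0.999 of the weight, given by how near its replicates and groups lie. 6101 of the 7375 tested genes had a single solution. Both steps were tested on simulated data. Genes with a base mean of 1000 or more in either table, which include those high in KO8 alone, were left out.

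Reads of genes of base mean 10 or more were tested with limma 3.58.1 (R 4.3.3, voom weights, two-sided, Benjamini-Hochberg), WT and KO4 only, and with all 6 libraries for KO4 minus KO8. The replicate check could not be made because library numbers are unknown. Named genes are the 10 largest rises and falls among called genes with separate groups, up to 5 per list by p, and fixed markers. The members, 26 lists and tests were chosen with earlier results of these data known. Genes were placed on mm9 by symbol (20202) or synonym (2366), and 2558 got a chromosome alone from RefSeq. Values of 3 genes that this naming rule covers are not reported here.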

Additional observations from a re-analysis of the deposited data

Results flagged for a closer look

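The 2 knockout clones differed in 16 of the genes named, by limma in the fit of 6 libraries, given as KO4 minus KO8 on the log2 scale. Among them Cldn3, Marveld2, Cldn7, Cgn and Snhg14 were named after their values were seen, so the count is partly selected. Over all 9552 genes of that fit, 0.209% were higher and 0.335% lower in KO4. As given above, the calls of that fit depend on single libraries. The globins Hbb-y (-3.99, adjusted p = 0.00575), Hba-x (-3.85, adjusted p = 0.00787) and Hbb-bh1 (-3.68, adjusted p = 0.0257), the Wnt antagonist Sfrp5 (-2.41, adjusted p = 0.00503), Tagln (-1.77, adjusted p = 0.0457), Epcam (-0.95, adjusted p = 0.0374) and the junction genes Cldn3 (-2.16, adjusted p = 0.0257), Marveld2 (-1.56, adjusted p = 0.0389), Cldn7 (-1.06, adjusted p = 0.0374) and Cgn (-0.86, adjusted p = 0.0292) were lower in KO4. Tbx5 (1.29, adjusted p = 0.0257), Snhg14 (1.19, adjusted p = 0.0216), Sgce (1.05, adjusted p = 0.0389), Dll4 (0.86, adjusted p = 0.0367), Snai1 (0.85, adjusted p = 0.0257) and Zrsr1 (0.82, adjusted p = 0.0257) were higher. Both libraries of a clone lay on the same side of both libraries of the other clone for each of them. Since the genes were picked by this same test, that separation adds no support.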

How the results depend on the processing

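The 815 higher and 637 lower genes were within 1.5 times of these counts under total-read and upper quartile scaling, limma-trend with either pseudocount, both other minimum base means, robust moderation, genes with a single solution (chosen after seeing the data) and the genes off chromosome 8. With the KO8 libraries in the fit they were 203 and 189, and with a log2 difference of at least 1 they were 236 and 143. At an adjusted p under 0.01, 372 were lower. Leaving out each library gave 602 to 738 higher and 351 to 700 lower. The 45 genes that differ between the clones became 102 with limma-trend and 0 to 1324 when each library was left out. For 154 named genes, 1968 of 2119 recomputed values kept their call, 139 lost it (82 with the KO8 libraries in the fit) and 11 gained it. Only Pou5f1 turned direction, to 0.022 without WT library b (-0.54 without WT library a). No paired analysis was possible because the columns carry no replicate numbers. The log2 difference of Zfp512b has no alternative since its reads were not solved. What ends the calls in each case was not tested. Depth per library was similar. The limit of 1000 set on the base mean left out 4875 of the 4882 genes that could not be tested, and the part of depth in this was not tested.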
